A study of Mus musculus with 9 samples.

Results

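The polyamine synthesis and antizyme genes described here are Odc1, Azin1, Oaz1, Oaz2, Amd1, Srm, Sms, Sat1 and Smox. They were chosen by symbol for their place in the polyamine pathway, by a rule that uses no measured value but was written with earlier results of these data known, and are 9 of the 20189 genes in the count table. All 9 were found by symbol, and all 9 had enough reads to be tested.

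RNA-seq was carried out on E14 cells, an established mouse embryonic stem (ES) cell line of wild type genotype, after 3 h without Thr, after 3 h without Cys, or in medium with all amino acids (unstarved). Each group had 3 libraries, and no label says whether these came from separate cultures, so the p-values measure only the spread between these libraries. The cells were grown with serum, LIF and β-mercaptoethanol on gelatin. The labels describe a starvation medium for Arg and Leu only, and the study's methods name a Cys-free DMEM for cell death assays, without saying which medium the Cys and Thr libraries had.

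Library totals lay between 48763102 and 74962733 counts, and the share of mitochondrial transcripts between 0.443 and 0.765%. All 8 ES cell markers examined were above 1 CPM (counts per 1000000 of the library total, scaled by TMM), and their summed level was 3328 to 3376 CPM in unstarved, 3312 to 3326 in Cys-starved and 3647 to 3699 in Thr-starved libraries. That sum joins markers with opposite differences: mean levels in unstarved and Thr-starved cells were 148 and 267 CPM for Klf4, 487 and 655 for Esrrb and 397 and 537 for Sox2, but 283 and 211 for Nanog, 147 and 101 for Fgf4 and 849 and 757 for Pou5f1. In Cys-starved cells the means were 583 CPM for Esrrb and 859 for Zfp42 (768 unstarved), but 346 for Sox2, 223 for Tfcp2l1 (269 unstarved) and 113 for Fgf4. Of 18 markers of other cell types, 15 were tested and 11 of these had a mean over 1 CPM. The summed level of the 15 was 43.9 to 45.2 CPM in unstarved, 48.0 to 51.0 in Cys-starved and 48.2 to 50.95 in Thr-starved libraries. It too joins opposite differences, with mean levels in unstarved and Thr-starved cells of 8.37 and 15.4 CPM for Sox1 and 0.677 and 2.28 for Gata3, but 3.24 and 0.882 for Thy1, 3.39 and 1.17 for T and 2.90 and 0.994 for Eomes. Their part in the results was not tested, and in bulk RNA a shift in the makeup of the culture and a shift in RNA per cell cannot be told apart.

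Polyamines are small positively charged molecules that bind RNA and DNA and that dividing cells need in quantity. Ornithine decarboxylase (Odc1) makes putrescine, AdoMet decarboxylase (Amd1) provides the aminopropyl donor, and spermidine synthase (Srm) and spermine synthase (Sms) build spermidine and spermine. Antizymes (Oaz1, Oaz2) bind Odc1 protein and deliver it to the proteasome, the antizyme inhibitor Azin1 takes antizyme away from it, and Sat1 and Smox acetylate or oxidise the larger polyamines. Much of this control acts on translation and protein stability, which RNA counts do not measure.

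Antizyme translation needs the ribosome to slip by a base at a stop codon, a step that polyamines promote, and Amd1 translation is restrained by a short upstream reading frame. These sequences are shown because they are the elements through which polyamine supply is known to act on the proteins made from the transcripts counted here. They were read from the GENCODE M21 transcripts of GRCm38. The antizyme sites lie in the coding sequence at chr10:80828271-80828321 (Oaz1, plus strand) and chr9:65686248-65686298 (Oaz2, plus strand), and capitals mark the codon before the stop and the stop codon itself, with 68 codons before that stop in Oaz1 and 32 in Oaz2. The windows were identical at 43 of 51 bases (84.3%).
Oaz1: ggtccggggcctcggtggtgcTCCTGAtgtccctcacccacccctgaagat
Oaz2: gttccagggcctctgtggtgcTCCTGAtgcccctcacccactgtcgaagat

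The upstream frame of Amd1 lies in the 5′ UTR at chr10:40302150-40302179 (minus strand). That of Amd2, an intronless gene on the same chromosome, lies at chr10:35711855-35711884 (minus strand). Capitals mark the frame of 6 codons with its stop. The stretches of 30 bases were identical, as were most bases of the transcripts, so that many reads of these genes may fit both.
Amd1: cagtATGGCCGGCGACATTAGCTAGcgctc
Amd2: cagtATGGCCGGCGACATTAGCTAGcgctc

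RefSeq promoter windows (GRCm38.p6, 250 bases before to 50 after a start) were held for 7 of the 9 genes, with 8 windows in all. The E-box CACGTG (its own reverse complement), bound by many basic helix-loop-helix factors, was found in 1 of them, upstream of Sms at chrX:157492458-157492503 (minus strand), where the motif begins at position -196 from the start. That motif occurs in 7.15% of all 32851 promoter windows. The amino acid response element TGATGNAAN, searched on both strands, was in none of the 8 windows and in 3.95% of all windows. The stretch around the Sms E-box is shown with the motif in capitals. A match in a window is a description of the letters only.
Sms: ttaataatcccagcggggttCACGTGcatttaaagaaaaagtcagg

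In unstarved cells the genes spanned a wide range of transcript levels. Per kilobase of merged exons, Odc1 stood at 342 CPM per kb, followed by Srm at 183, Oaz1 at 129, Amd1 at 70.6, Sms at 30.2, Azin1 at 22.7, Oaz2 at 13.6, Sat1 at 11.9 and Smox at 4.53. Over all libraries Odc1 ranked 270th of 20125 genes on this scale, with 1.34% of genes higher, and Smox had 42.6% of genes higher. Neighbours in this order did not overlap in unstarved cells; the closest pair was Oaz2 (13.0 to 14.2 CPM per kb) and Sat1 (11.4 to 12.6 CPM per kb). In Cys-starved cells Oaz2 (11.7 to 11.98 CPM per kb) and Sat1 (11.2 to 11.9 CPM per kb) overlapped. In Thr-starved cells the order changed at 2 places, with Azin1 (33.8 CPM per kb) above Sms (25.1 CPM per kb) and Sat1 (14.5 CPM per kb) above Oaz2 (9.39 CPM per kb). Merged exons count every annotated exon, so the level of a gene whose main transcript is short is understated.

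**Figure D1:**
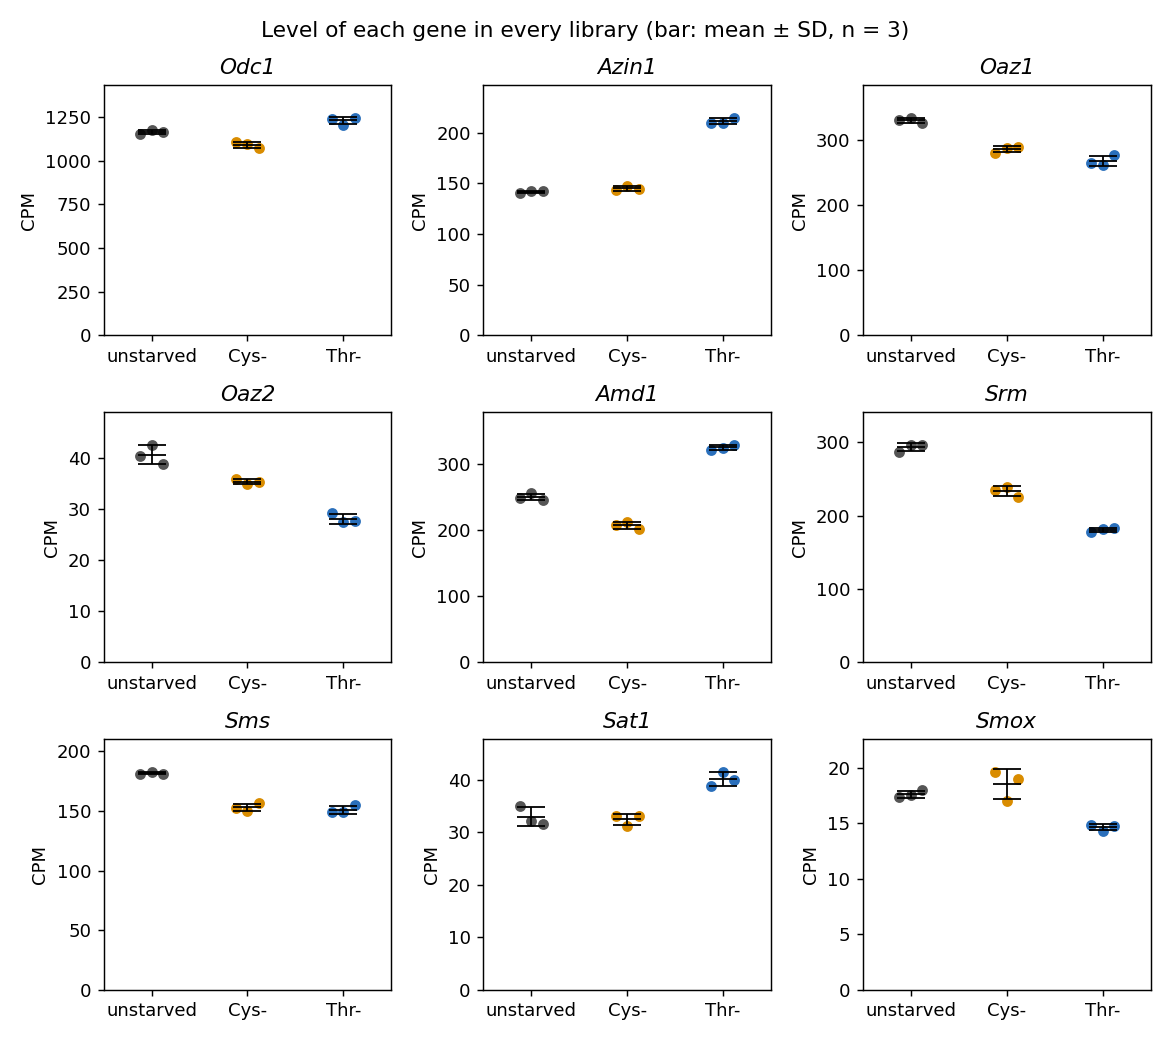
Level of each of the 9 genes in every library in CPM (each axis from 0), by group, with unstarved, Cys-starved (Cys-) and Thr-starved (Thr-) libraries as points and the mean ± SD of 3 libraries as bars. Azin1 stands near 142 CPM in unstarved and 145 CPM in Cys-starved cells and at 212 CPM in Thr-starved cells, while Srm steps down from 293 to 233 and 180.5 CPM.

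Thr-starved cells differed from unstarved cells in all 9 genes, with 4 higher and 5 lower. The antizymes Oaz1 and Oaz2 were lower and the antizyme inhibitor Azin1 was higher. Among the synthesis enzymes Amd1 and, by less, Odc1 were higher, and Srm and Sms were lower. Of all 20143 genes tested, 31.1% were called higher and 31.9% lower in this comparison, and for 66.5% the groups did not overlap, so that calls of this kind were common. Calls were made at an adjusted p of 0.05 or less with edgeR's quasi-likelihood test and Benjamini-Hochberg adjustment over all genes. The median absolute log2 fold change of the 9 genes was 0.30, beside 0.39 over all genes and 0.31 over 11410 better expressed genes (mean 5 CPM or more), 80.6% of which were called.

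Cys-starved cells differed from unstarved cells in 6 of the 9 genes, and all 6 were lower. These were Odc1, Oaz1, Oaz2, Amd1, Srm and Sms, while Azin1, Sat1 and Smox did not pass the test. Of all genes tested, 17.5% were called higher and 18.8% lower, and for 46.4% the groups did not overlap, against 7 of these 9. Among the better expressed genes, to which all 9 belong, 55% were called and the median absolute log2 fold change was 0.13, beside 0.20 for the 9. Scaling by the authors' size factors instead of TMM moved the calls over all genes from 3523 higher and 3790 lower to 2787 and 4786, and the 6 calls stood. The median log2 fold change of the 9 genes was -0.20, beside 0.0068 over all genes. In the direct comparison of Thr-starved with Cys-starved cells, 4 genes were higher, 4 were lower and Sms did not pass. There 30.4% of all genes were called higher, 31.6% lower, and 65.8% did not overlap. The authors' size factors moved these calls from 6123 higher and 6365 lower to 6756 and 5862, and those of the 9 genes to 4 higher and 3 lower, with Oaz1 no longer called. The comparisons with unstarved cells share the same 3 control libraries.

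**Figure D2:**
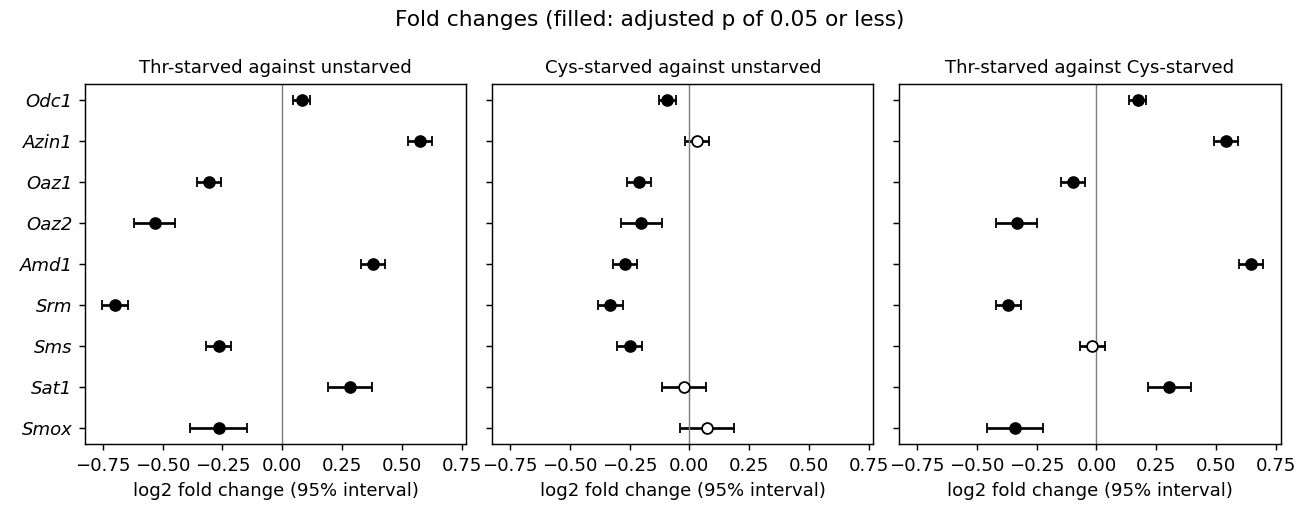
Log2 fold change of each gene in the 3 comparisons with its 95% interval, from the edgeR fit over all 9 libraries, where filled points have an adjusted p of 0.05 or less and the vertical line marks no change. Thr starvation spreads the genes from -0.70 (Srm) to 0.58 (Azin1), and Cys starvation from -0.33 (Srm) to 0.074 (Smox, open point).

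Odc1, the first enzyme of the pathway, had the most reads and moved least among the called genes in Thr-starved cells. Its level was 1153, 1175 and 1163 CPM in the unstarved libraries, 1107, 1095 and 1074 CPM in the Cys-starved libraries and 1240, 1206 and 1247 CPM in the Thr-starved libraries. The 3 groups did not overlap, with Cys-starved libraries lowest and Thr-starved libraries highest. Against unstarved cells, Thr-starved cells had 5.78% more (log2 fold change 0.081 ± 0.017, SE; edgeR adjusted p = 0.000294). Cys starvation gave a log2 fold change of -0.092 ± 0.017 (adjusted p = 0.000201), so that Odc1 fell by 6.16%. The direct difference of Thr from Cys was 0.17 on the log2 scale (adjusted p = 9.61e-09).

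Amd1, which makes the aminopropyl donor from S-adenosylmethionine, went opposite ways in the starvations. It was at 249, 255 and 246 CPM in unstarved, 208, 212 and 202 CPM in Cys-starved and 321, 325 and 329 CPM in Thr-starved libraries. Again no groups overlapped. Amd1 rose by 0.38 ± 0.024 on the log2 scale without Thr (SE; edgeR adjusted p = 2.92e-12). Without Cys it fell by 0.27 ± 0.024 (adjusted p = 8.42e-09). Thr-starved cells had 1.57 times the Amd1 level of Cys-starved cells (log2 0.65, adjusted p = 3.26e-16), the largest of the 9 differences in the direct comparison. Reads of Amd1 may be counted for its near-identical copy Amd2 and the reverse.

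Srm, spermidine synthase, fell in both starvations and furthest without Thr. The unstarved libraries had 287, 296 and 296 CPM, the Cys-starved libraries 235, 238 and 225 CPM and the Thr-starved libraries 177, 182 and 182 CPM. The groups followed each other without overlap. Without Thr, Srm fell by 38.4% (log2 fold change -0.70 ± 0.025, SE; edgeR adjusted p = 1.52e-16). Without Cys it fell by 20.5% (-0.33 ± 0.025, adjusted p = 6.19e-10). The direct difference was -0.37 (adjusted p = 1.59e-11). Srm had no near-identical copy by the search.

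Sms, spermine synthase, was lower in both starvations. Its levels were 181, 183 and 181 CPM in unstarved, 153, 149.88 and 156 CPM in Cys-starved and 149, 149 and 155 CPM in Thr-starved libraries. Starved libraries of the 2 kinds overlapped and all were below the unstarved ones. On the log2 scale Sms changed by -0.27 ± 0.025 with Thr starvation (SE; edgeR adjusted p = 3.67e-09). The change with Cys starvation was -0.25 ± 0.025 (adjusted p = 6.13e-08). Their direct difference was -0.017, with a 95% interval of -0.070 to 0.036 (adjusted p = 0.581).

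Oaz1, the main antizyme, was lower in both starvations. The unstarved libraries had 330, 334 and 326 CPM, the Cys-starved libraries 280, 288 and 289.5 CPM and the Thr-starved libraries 264, 262 and 276 CPM. All starved libraries lay below the unstarved ones. Relative to unstarved cells the log2 fold change was -0.30 ± 0.024 for Thr (SE; edgeR adjusted p = 1.48e-10) and -0.21 ± 0.024 for Cys (adjusted p = 3.71e-07). The direct difference of -0.096 (adjusted p = 0.0014) was no longer called when libraries were scaled by the authors' size factors (-0.052, adjusted p = 0.0776).

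Oaz2, a second antizyme of the same mechanism, had lower counts and a larger change with Thr starvation. It stood at 40.4, 42.6 and 38.9 CPM in unstarved, 35.8, 35.0 and 35.3 CPM in Cys-starved and 29.2, 27.4 and 27.6 CPM in Thr-starved libraries. The groups did not overlap. Thr starvation changed Oaz2 by -0.53 ± 0.042 (log2, SE; edgeR adjusted p = 1.29e-10). The change without Cys was -0.20 ± 0.041 (adjusted p = 0.000404). The direct difference was -0.33 (adjusted p = 3.3e-07).

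Azin1, an Odc1 homologue without enzyme activity that binds antizyme, rose with Thr starvation and gave no call with Cys starvation. Its levels were 141, 142 and 142 CPM in unstarved, 143, 148 and 144 CPM in Cys-starved and 210, 210 and 215 CPM in Thr-starved libraries. The Thr-starved libraries stood apart from the other 6. The log2 fold change with Thr was 0.58 ± 0.024 (SE, edgeR adjusted p = 1.62e-15), a rise of 49.2%. Of all genes tested, 3.99% had a smaller p (2.67% for Srm) and 34.4% had a larger absolute log2 fold change. With Cys the log2 difference was 0.034, with a 95% interval of -0.016 to 0.084 (adjusted p = 0.306). This Cys value lay between 0.021 and 0.042 when libraries were left out, and was never called. The direct difference between the starvations was 0.54 (adjusted p = 5.83e-15).

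Sat1, which acetylates spermidine and spermine ahead of export or oxidation, rose with Thr starvation. It had 35.0, 32.1 and 31.6 CPM in unstarved, 33.0, 31.2 and 33.1 CPM in Cys-starved and 38.9, 41.5 and 39.9 CPM in Thr-starved libraries. The Thr-starved libraries were above all others, and the other groups overlapped. With Thr starvation the log2 fold change was 0.28 ± 0.044 (SE; edgeR adjusted p = 5.97e-06). With Cys starvation the difference was -0.022, with a 95% interval of -0.114 to 0.069 (adjusted p = 0.746). The direct difference was 0.31 (adjusted p = 2.09e-06).

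Smox, which turns spermine back into spermidine, was the least abundant of the 9 and fell with Thr starvation. Its levels were 17.4, 17.6 and 18.0 CPM in unstarved, 19.6, 17.0 and 19.0 CPM in Cys-starved and 14.9, 14.3 and 14.7 CPM in Thr-starved libraries. The Thr-starved libraries were the lowest, and the others overlapped. The log2 fold change was -0.27 ± 0.057 (SE, edgeR adjusted p = 0.000304) with Thr and 0.074 with a 95% interval of -0.041 to 0.188 with Cys (adjusted p = 0.332). The Cys value was 0.030 without Cys-starved replicate 1 and 0.134 without Cys-starved replicate 2 (edgeR adjusted p = 0.0698), and was not called in either case. The direct difference was -0.34 (adjusted p = 1.59e-05).

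Several of these genes have processed copies elsewhere in the genome, and short reads may fit a gene and its copy alike. Other genes in the table that matched a transcript at 95% identity or more over at least 100 bases were found for 7 of the 9 genes, all but Srm and Smox. For Azin1 the match is Gm49077, which overlaps Azin1 itself on the opposite strand and is not a copy elsewhere. Amd2 matched 99.8% of the Amd1 transcript at 99.6% identity, and its counts were 77.5 to 78.95% of those of Amd1 in every library. With its 4 pseudogenes, the copies of Amd1 summed to 125 to 129% of its own counts. Oaz1-ps, on chromosome 17, held 53.2 to 54.6% of the counts of Oaz1, the 3 copies of Sms 58.6 to 61.4% of those of Sms, and the 8 copies of Odc1 51.9 to 53.6% of those of Odc1. For Oaz2 the share was 6.36 to 8.78%, for Sat1 1.73 to 3.13%, and for Azin1, whose match is an antisense gene, at most 0.151%.

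Counts of the larger copies changed much as those of the genes did. Amd2 changed by 0.39 on the log2 scale in Thr-starved cells (edgeR adjusted p = 1.98e-12), beside 0.38 for Amd1. In Cys-starved cells it changed by -0.26 (adjusted p = 1.69e-08), beside -0.27 for Amd1. Oaz1-ps changed by -0.32 and -0.22, beside -0.30 and -0.21 for Oaz1. The coding gene AW146154, which matches 500 bases of Odc1 at 95.2% identity, went the other way at -0.53 with Thr and 0.26 with Cys. How reads that fit several places were assigned is not given in the sources used here. If they were counted at each place, or at 1 of them, the levels, ranks and ratios of these genes would hold reads of copies or lack reads of the gene; that was not tested, and whether any copy is transcribed was not tested. Summing each gene with its copies, an alternative chosen after seeing the data, gave 0.39 for Amd1, 0.082 for Odc1, -0.31 for Oaz1 and -0.28 for Sms with Thr starvation, and it changed no call.

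**Figure D3:**
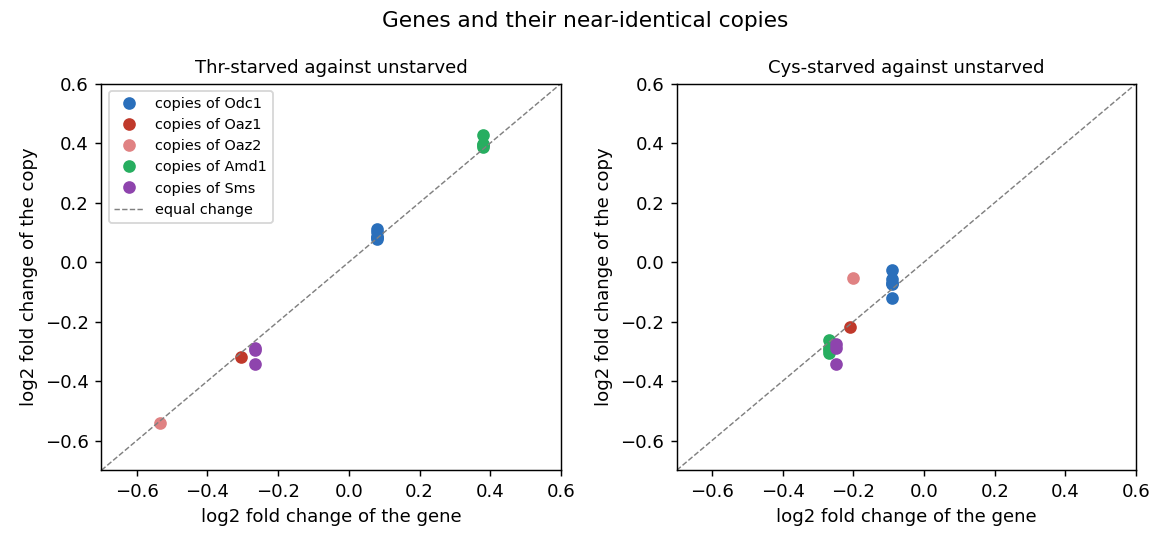
Log2 fold change of each near-identical copy (vertical) against that of the gene it copies (horizontal) for both starvations against unstarved cells, for copies with over 1% of the gene's counts in every library, coloured by gene, with the dashed line marking equal change. Copies of Amd1, Odc1, Oaz1 and Sms lie near the line, and Oaz2-ps lies above it with Cys starvation (-0.052 beside -0.20 for Oaz2).

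Ratios of transcripts within a library do not depend on how libraries are scaled. Lengths are of merged exons, 3405 bases for Odc1 and 2558 for Oaz1, whose longest coding transcripts have 2208 and 1071 bases. The size of a ratio depends on that choice, but its difference between groups on the log2 scale does not. Per length, the ratio of Odc1 to Oaz1 was 2.63, 2.64 and 2.68 in unstarved, 2.97, 2.86 and 2.79 in Cys-starved and 3.53, 3.46 and 3.40 in Thr-starved libraries. Both starved groups lay above the unstarved libraries, by 0.39 (Thr) and 0.12 (Cys) on the log2 scale. The ratio of Azin1 to Oaz1 was between 0.174 and 0.178 in unstarved, 0.204 and 0.210 in Cys-starved and 0.319 and 0.328 in Thr-starved libraries. The differences from unstarved cells were 0.24 (Cys) and 0.88 (Thr) on the log2 scale. For Azin1 to Odc1 they were 0.13 (Cys) and 0.50 (Thr). The ratio of Sat1 to Srm, a breakdown against a synthesis enzyme, was 0.0704, 0.0626 and 0.0615 in unstarved, 0.0809, 0.0755 and 0.0847 in Cys-starved and 0.127, 0.132 and 0.126 in Thr-starved libraries. The Thr-starved ratio of Sat1 to Srm was 1.98 times the unstarved one, and the Cys-starved ratio 1.24 times. This pair does not stand for breakdown against synthesis as a whole. With Thr starvation the other breakdown gene, Smox, fell (log2 fold change -0.27). Of the synthesis genes Srm and Sms fell (-0.70 and -0.27), but Amd1 and Odc1 rose (0.38 and 0.081).

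No groups overlapped for any of the 4 ratios. The 2-sided exact permutation test over 3 against 3 libraries gave p = 0.1 for each of the 12 comparisons, which is the smallest it can give, and 0.1 after adjustment, so no ratio could pass the threshold in this design. Odc1 and Oaz1 both have copies with many counts, so that this limit applies to both terms of their ratio and to 1 term of each ratio with Azin1.

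**Figure D4:**
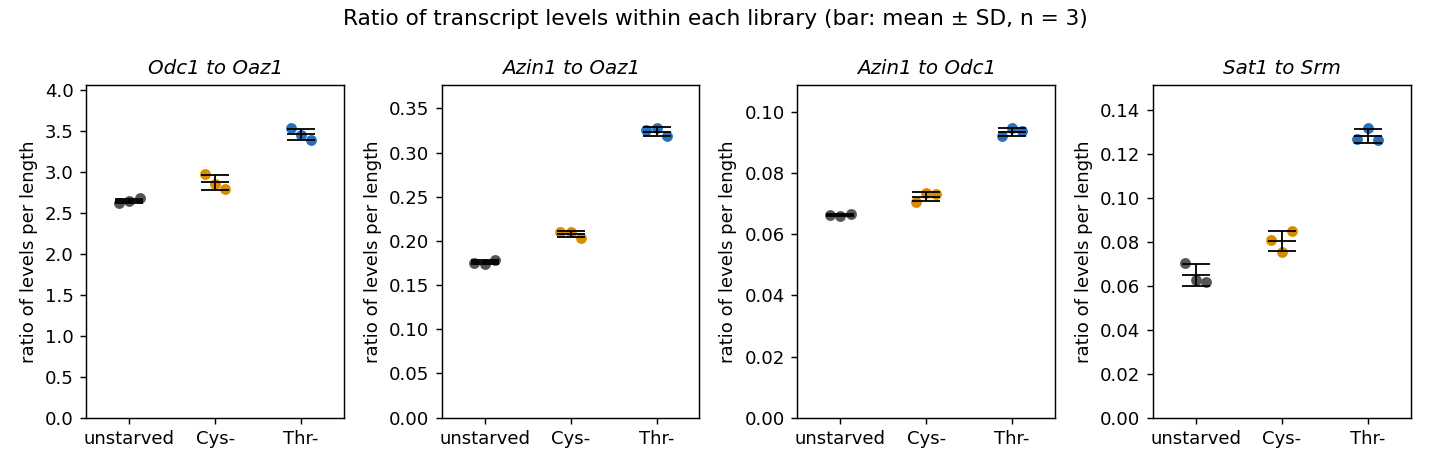
Ratio of transcript levels per length of merged exons within each library (vertical, each axis from 0) for 4 pairs of genes by group, with libraries as points and the mean ± SD of 3 libraries as bars. In each pair the unstarved libraries are lowest and the Thr-starved libraries highest, with Sat1 to Srm reaching 0.126 to 0.132 in Thr-starved cells.

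The rest of the pathway was described from a list of 26 genes, of which 22 were tested, and the others were not analysed here. In Thr-starved against unstarved cells 6 were higher and 10 lower, in Cys-starved cells 6 were higher and 5 lower, and in the direct comparison 6 were higher and 12 lower. Scaling by the authors' size factors gave 5 higher and 6 lower with Cys starvation, and the same counts as before with Thr starvation and in the direct comparison. Over all genes tested the shares called higher and lower were 31.1 and 31.9% (Thr), 17.5 and 18.8% (Cys) and 30.4 and 31.6% (direct), and with Thr starvation 80.6% of better expressed genes were called in either direction. With so many calls, counts over a few genes of a role describe those genes only. The median log2 fold change of the list was -0.049 with Thr and 0.0094 with Cys starvation, beside -0.016 and 0.0068 over all genes. In each role, genes other than Mat2a, Mtap, Slc3a2, Dohh, Amd2 and Azin2 are named because the counts are small, and were chosen after their values were seen.

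In precursor supply 3 of 4 genes were lower with Thr starvation, beside 31.9% of all genes tested. Mat2a, the enzyme that makes S-adenosylmethionine, the substrate of Amd1, was at 489, 466 and 488 CPM in unstarved, 421, 431 and 411 CPM in Cys-starved and 187, 194 and 177 CPM in Thr-starved libraries. The Thr-starved libraries were far below the rest. Its log2 fold change was -1.37 ± 0.030 (SE; edgeR adjusted p = 1.99e-20) with Thr and -0.19 (adjusted p = 1.38e-05) with Cys. The antisense gene Particl, which overlaps Mat2a, had at most 0.54% of its counts. Its partner subunit Mat2b changed by -0.22 with Thr and Oat, which interconverts ornithine and glutamate semialdehyde, by -0.59. With Cys, Oat changed by -0.21 and Mat2b did not pass (0.010, adjusted p = 0.835).

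Salvage of methylthioadenosine, the by-product of Srm and Sms, was lower in 4 of 5 genes with Thr starvation (31.9% of all genes) and called in 0 of 5 with Cys starvation by edgeR (17.5% of all genes higher and 18.8% lower). For Cys, 1 of the 5 (Apip) had an unadjusted p under 0.05, and DESeq2 called 0. All 5 were lower in the direct comparison, beside 31.6% of all genes. Mtap, the first enzyme of this route, was at 71.5, 69.1 and 73.3 CPM in unstarved, 68.6, 70.4 and 68.9 CPM in Cys-starved and 45.0, 41.1 and 42.9 CPM in Thr-starved libraries. Only the Thr-starved libraries stood below. The log2 fold change of Mtap was -0.73 ± 0.036 (SE; edgeR adjusted p = 3.14e-14) with Thr and -0.69 against Cys. Adi1, Enoph1 and Mri1 changed by -0.40, -0.38 and -0.14 with Thr, while Apip was at -0.063 (adjusted p = 0.428). Without unstarved replicate 1 the Thr call of Mri1 was lost (edgeR adjusted p = 0.0635). In the direct comparison Mri1 was lost without Cys-starved replicate 2 (adjusted p = 0.0532) and Apip without Cys-starved replicate 1 (adjusted p = 0.0577), and with Cys starvation Apip was called without unstarved replicate 3 or Cys-starved replicate 3 (adjusted p down to 0.00925).

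Of 5 genes for transport, 3 were higher and 2 lower with Thr starvation, beside 31.1 and 31.9% of all genes. Slc3a2, the heavy chain of several amino acid exchangers that has also been tied to polyamine transport, was at 350, 359 and 355 CPM in unstarved, 424, 418 and 408 CPM in Cys-starved and 586, 589 and 594 CPM in Thr-starved libraries. It rose stepwise over the groups without overlap, by 0.73 ± 0.021 (log2, SE; edgeR adjusted p = 1.95e-18) with Thr and by 0.23 (adjusted p = 7.17e-09) with Cys. The transporter gene Atp13a3 rose by 0.53 with Thr and 0.093 with Cys, whereas the lysosomal polyamine exporter Atp13a2 was at -0.20 with Thr and 0.17 with Cys. Slc18b1, at 3.01 to 3.44 CPM in unstarved cells, was lower with Thr (-0.83), and Atp13a4, at 0.232 to 0.445 CPM there, was higher (0.88, adjusted p = 0.0229), a call lost without unstarved replicate 1 or Thr-starved replicate 2 (adjusted p up to 0.111). With Cys starvation Atp13a4 was at -0.93 (adjusted p = 0.0615; called without unstarved replicate 1, adjusted p = 0.0215) and Slc18b1 at -0.25 (adjusted p = 0.0993). In the direct comparison Atp13a4 was higher in Thr-starved cells by 1.81 (adjusted p = 0.000119).

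Hypusine, a modified lysine of eIF5A made from spermidine, needs Dhps and Dohh. Dohh was lower with Cys starvation, at -0.33 ± 0.058 (log2, SE; edgeR adjusted p = 7.92e-05), and at -0.016 with Thr (adjusted p = 0.83). Eif5a was at 0.042 with Thr (adjusted p = 0.0232), a call lost without unstarved replicate 1, unstarved replicate 3 or Thr-starved replicate 3 (adjusted p up to 0.107), and -0.097 with Cys (adjusted p = 3.82e-05), and Eif5a2 at 0.24 with Cys (adjusted p = 0.000638) and -0.034 with Thr (adjusted p = 0.603). Dhps was called in neither.

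Of the paralogs, Azin2, the second antizyme inhibitor, was at 4.81, 4.43 and 3.75 CPM in unstarved, 4.76, 5.95 and 5.55 CPM in Cys-starved and 6.67, 5.997 and 5.44 CPM in Thr-starved libraries. It was higher with Thr by 0.47 ± 0.110 (log2, SE; edgeR adjusted p = 0.000762), and with Cys by 0.32 ± 0.109 (adjusted p = 0.0249), where the groups overlapped and the call was lost without unstarved replicate 3, Cys-starved replicate 2 or Cys-starved replicate 3 (adjusted p up to 0.142). The direct difference between the starvations was 0.15 (adjusted p = 0.243). Paox, which oxidises acetylated polyamines, was lower with Thr (-0.45) and higher with Cys (0.17).

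Over the 9 libraries, log2 levels of Odc1 and Amd1 had a Pearson correlation of 0.97, Oaz2 and Srm of 0.97, Oaz1 and Sms of 0.959, and Azin1 and Oaz2 of -0.933. These are descriptions over 9 points that fall into 3 groups of libraries. Among 11409 other genes with at least 5 CPM, those most like Azin1 were Tra2a (0.999), Arih1 and Dnajc9, and 1763 genes exceeded 0.95. For Odc1 they were Litaf (0.990), Chchd3 and Cox8a, with 323 genes over 0.95. For Oaz1 they were Sub1 (0.997), its own copy Oaz1-ps and Ppa1, with 302 genes. For Sat1 they were Reps2 (0.990), Zfp819 and Derl2, with 148 genes, and for Smox Map2 (0.980), Nelfe and Sav1, with 57 genes.

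By position in GRCm38, the genes are spread over 7 chromosomes. Odc1 lies at chr12:17544794-17551505 (plus strand), Azin1 at chr15:38487427-38519266 (minus), Oaz1 at chr10:80826656-80829290 (plus), Oaz2 at chr9:65668001-65690300 (plus) and Amd1 at chr10:40287458-40302186 (minus). Srm lies at chr4:148591503-148594993 (plus), Sms at chrX:157443855-157492287 (minus), Sat1 at chrX:155213132-155216449 (minus) and Smox at chr2:131491496-131525922 (plus). The annotation places a snoRNA gene, Gm22748, within Odc1 on the same strand, and an antisense gene, Gm49077, over Azin1. The library kit keeps strand, but the strand setting of the counting is not given in the sources used here.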

How the data were processed

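The authors extracted RNA, prepared poly(A) libraries with a directional NEBNext kit and sequenced them as paired reads of 43 bases in 1 NextSeq 500 run. They aligned to GRCm38 with STAR 2.7.4a and deposited raw HTSeq counts per Ensembl gene, with a second table of the same counts divided by DESeq2 size factors. That deposited signal was used here only for its size factors. Settings for strand and for reads with several matches are not given in the sources used here. Of counts between 1 and 20, 67.8% were even, which would arise if both ends of a pair were counted; this was not tested, and halving all counts changed no call of the 9 genes.

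Counts were analysed with edgeR 4.0.16 (R 4.3.3) by TMM and the quasi-likelihood F test, in 1 fit of 3 groups over 9 libraries and 20143 genes with at least 1 count. CPM are counts per 1000000 of the TMM-scaled library total. Benjamini-Hochberg adjusted p-values of 0.05 or less were called. Intervals cover the spread between libraries. Ratios were compared by exact permutation. Copies were sought with BLAST 2.17.0. Scripts were tested on simulated data. Symbols from GENCODE M21 matched 20171 of 20189 genes.

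All 9 genes were named in every comparison. Of the pathway list, the 3 called genes of largest change with at least 5 CPM were named per comparison, together with Amd2 and Azin2. Further genes of the list, some under 5 CPM, were named outside this rule after their values were seen. For likeness, the 3 genes of highest Pearson correlation of log2(CPM + 0.5) were named. Members and lists were chosen with earlier results of these data known. Alternatives were RLE or deposited size factors, other count filters, DESeq2 1.42.0, a fit of only the groups compared, a replicate block, other thresholds, halved or thinned counts and leaving out each library. Deviations of samples with the same replicate number correlated at -0.244 to 0.106.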

Additional observations from a re-analysis of the deposited data

Results flagged for a closer look

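Odc1 and Amd1 were each higher in Thr-starved and lower in Cys-starved than in unstarved cells, and the direct edgeR test between the starvations passed for both. The difference of Thr-starved from Cys-starved cells was 0.17 on the log2 scale for Odc1 (edgeR adjusted p = 9.61e-09) and 0.65 for Amd1 (adjusted p = 3.26e-16). All 3 Thr-starved libraries lay above all 3 Cys-starved libraries for each gene. Of all genes tested, 30.4% were called higher and 31.6% lower in the direct comparison, and for 65.8% the groups did not overlap. Against unstarved cells, 87.4% (Thr) and 71.3% (Cys) of all genes had a larger absolute log2 fold change than Odc1, and 51.5% and 32.1% than Amd1. The share of all genes higher with Thr and lower with Cys was not counted. Both have near-identical copies, and summed with these the differences were 0.17 and 0.66.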

How the results depend on the processing

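Of 23 called changes of the 9 genes, 22 kept their call and direction in every alternative that left the thresholds unchanged (18 to 19 each). The exception was Oaz1 between the starvations with the deposited size factors (-0.052, edgeR adjusted p = 0.0776). The cause was not tested. At an adjusted p of 0.01 or less, 9 (Thr), 6 (Cys) and 8 (Thr against Cys) of the 9 genes were called. Signs turned only among uncalled values. With the deposited size factors Azin1 with Cys came to -0.0082 and Sms between the starvations to 0.027, and Sat1 with Cys came to 0.021 without unstarved replicate 1 and 0.0051 without Cys-starved replicate 2, within a range of -0.050 to 0.021 when libraries were left out. Where a call also needed a log2 fold change of 1 or more in size, 2668 (Thr), 296 (Cys) and 2303 (Thr against Cys) genes were called, with 0, 0 and 0 of the 9 genes and 1, 0 and 2 of the pathway list. Leaving out 1 library at a time gave 12096 to 12689, 6520 to 7475 and 11788 to 12540 called genes, 13 to 16, 10 to 12 and 17 to 18 of the pathway list, and 9, 6 and 8 of the 9 genes every time.

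Correlations of same-numbered deviations were between -0.073 and 0.106 (Thr), -0.0787 and -0.0486 (Cys) and -0.244 and -0.0425 (Thr against Cys). Each deviation is taken from a mean of only 3 libraries, so these values cannot show whether samples of the same replicate number were handled together. With the replicate block 12488, 7063 and 12334 genes were called, and 9, 6 and 8 of the 9 genes. Ratios kept their direction throughout. Smox had the fewest counts of the 9 genes (684 to 1238 a library), and halved or thinned counts changed no call of the 9 genes.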
